A study of Mus musculus with 20 samples.

Results

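The effect of HuD on the ratio of polysomal to total RNA was measured gene by gene in NSC-34, a line derived from mouse motor neurons that keeps part of their character. HuD, the product of *Elavl4*, is a neuronal RNA-binding protein of the ELAV family that binds U-rich and AU-rich stretches, mostly in 3′ UTRs, and is known for acting on the stability and translation of neuronal mRNAs. An mRNA that is being translated carries several ribosomes and sediments as a polysome, so its share in the heavy part of a sucrose gradient is used as a measure of translation efficiency (TE). TE was taken here as the ratio of the POL-Seq level (polysomal RNA) to the RNA-Seq level (total RNA) of a gene, and the change in TE as its log2 value in HuD cells minus that in control cells. For RNAs not translated on cytosolic ribosomes, such as mitochondrial RNAs, snoRNAs and nuclear RNAs, TE stands for this ratio only, not for translation. All genes with enough reads were taken as members, 14906 of the 14924 genes in the table, without regard to HuD binding.

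The 8 libraries formed 4 groups of 2 biological replicates: polysomal RNA of control cells, polysomal RNA of HuD cells, total RNA of control cells and total RNA of HuD cells. Cells of the HuD group carried tagged human HuD under a tetracycline-responsive promoter, delivered by lentivirus into a line with the tetracycline repressor, and were induced for 48 h with 2 µg/ml of tetracycline by the labels, or doxycycline by the methods. The labels call the other group control cells, without an agent. The paper names cells that carry the repressor alone as the control of CRAC and of an RNA immunoprecipitation. It does not say which cells were the control of these libraries. The HuD construct and its induction therefore cannot be told apart from other differences between the groups. Read counts per library lay between 21296012 and 36284728. Of 11 markers of neurons and motor neurons, 10 were in the table, and their summed level was 2624 to 2920 CPM (read counts scaled to library size) over the 8 libraries, with *Chat* and *Stmn2* below 1 CPM and *Mnx1* not in the table. Of 14 markers of astrocytes, oligodendrocytes, microglia, endothelium, fibroblasts and muscle, 5 were in the table, with a summed level of 22.0 to 27.7 CPM. CPM values were scaled by edgeR's TMM method, which sets the bulk of genes to no change, so a shift of all mRNAs into polysomes would not be seen in any of the values below.

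*Elavl4* itself was at 90.3 and 118 CPM in the polysomal libraries of control cells and at 243 and 225 CPM in those of HuD cells. In total RNA it was at 78.3 and 97.4 CPM in control cells and at 237 and 212 CPM in HuD cells. Both fractions were thus higher in every HuD library, by 1.17 and 1.35 on the log2 scale. Its TE did not pass the test, with a log2 change of -0.18 (standard error 0.20, unadjusted p = 0.394, edgeR). Reads of the induced human RNA and of the mouse gene are in this count together and cannot be told apart.

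Across all genes, no TE change had an adjusted p-value under 0.05 in edgeR's quasi-likelihood test with Benjamini-Hochberg adjustment (0% of 14906 genes, smallest adjusted p = 1.00). DESeq2 and limma-voom also called none. With no adjustment, 61 genes at p under 0.05 had a higher TE (0.409% of genes tested) and 85 a lower TE (0.570%) in edgeR, 146 in all, against 50 in DESeq2 and 152 in limma-voom. With the replicate number as a block these counts were 163 and 199, still with none at an adjusted p under 0.05. Higher genes were 41.8% of the 146. Among protein coding genes alone 44 were higher and 32 lower (57.9% higher), and with GC content and coding length taken into account in 12826 of them, without the block, 60 were higher and 46 lower (56.6% higher). Of the genes with at least 5 CPM, all but the highest 5% and the lowest 5% lay between log2 TE changes of -0.22 and 0.22. The changes named below are therefore values of these libraries and are not called.

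The replicates agreed only loosely on which genes differed. TE changes were computed separately from the 4 libraries numbered 1 and the 4 libraries numbered 2, which share no library. Across 14906 genes, these 2 values correlated with Pearson's r of 0.08, and across the 10738 genes with at least 5 CPM with r of 0.17, as a description over genes that are not independent. The sign was the same in 59.1% of the latter. For 2768 genes (18.6%), TE in both HuD replicates was above TE in both control replicates, and for 2976 genes (20.0%) it was below. These 2 shares are the background for the gene classes below.

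**Figure D1:**
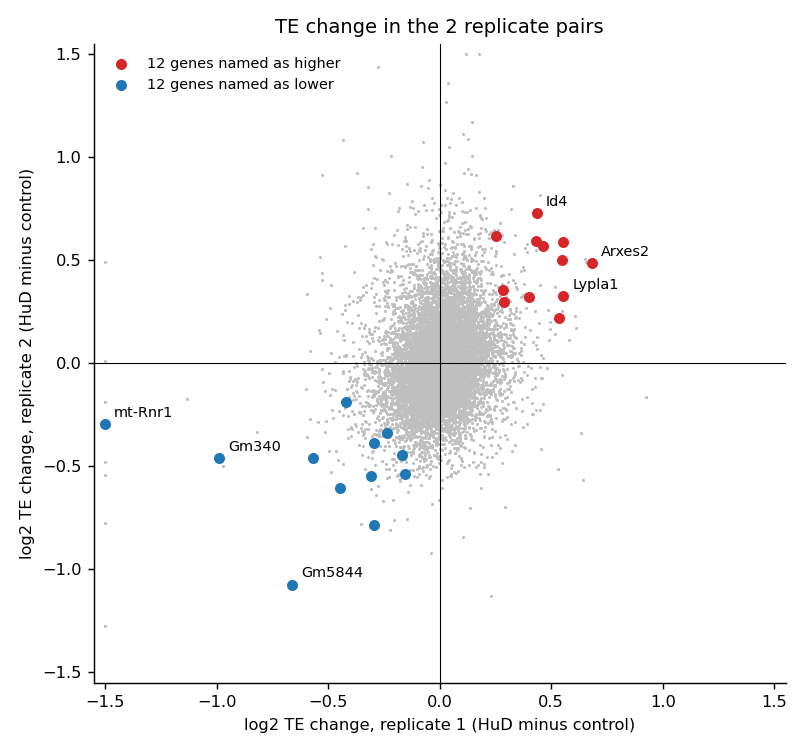
Each grey point is 1 of the genes with at least 5 CPM, with its log2 TE change in replicate 1 on the x axis and in replicate 2 on the y axis, and values beyond 1.5 are drawn at the edge. The cloud has little slope (r = 0.17), and the 24 coloured genes, chosen for small p-values and groups that do not overlap, lie away from it in the upper right and lower left.

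A pair of libraries stood apart and touch many of these values. Polysomal control replicate 2 had the lowest count and differed most from its partner, with an SD of the log2 ratio between replicates of 0.297 over genes with at least 5 CPM, against 0.146 for polysomal HuD, 0.180 for total control and 0.215 for total HuD. GC content and coding length held 34.7% of the variance of its deviations, against 2.86 to 18.6% in the other libraries. Total HuD replicate 1 held far more of several nuclear RNAs than any other library, as described below for *Malat1*. Without polysomal control replicate 1, which leaves replicate 2 as the only polysomal control, 47 genes had a higher TE at an adjusted p under 0.05 (edgeR) and none a lower one. In that fit the lone polysomal control is assumed to vary like the other groups, so its p-values do not cover the spread between polysomal controls. These were short and rich in GC, with a median coding length of 421 nt and a median GC content of 59.6%, against 1398 nt and 51.0% of all genes. Their median log2 TE change was 0.75 in replicate 2 and 0.04 in replicate 1, and 0 of them had an unadjusted p under 0.05 with all 8 libraries.

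The 12 genes with the smallest p-values among those with a higher TE, at least 5 CPM and groups that did not overlap were *Arxes2*, *Marcks*, *Lypla1*, *Arl10*, *Ube2d3*, *Id4*, *Sox4*, *Cd164*, *Ap1s2*, *Plp2*, *Arfip1* and *Mgst3*. All 12 encode proteins. Their log2 TE changes ran from 0.29 to 0.59. In all 12 the polysomal level was higher in HuD cells, with a median log2 change of 0.34, while total RNA was lower in 9 of 12, with a median of -0.09. Of these 12, 7 have HuD sites in the interactome mapped by CRAC (crosslinking and analysis of cDNAs) in the same cell line. By the labels and the methods, CRAC cells were induced at a higher dose and for a shorter time than the HuD cells of these libraries. The paper's results text instead gives CRAC the same dose and time as these libraries. Whether induction changes which genes are targets, here and in the splits by target below, was not tested. In this interactome, 8.60% of all genes tested are mRNA targets. That share covers genes of all types and levels, whereas the 12 had to have at least 5 CPM. Targets had a median level of 110 CPM against 26.2 CPM of all genes, so 8.60% understates the share among genes open to the rule.

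The CRAC site with the most deletions, the trace of a crosslinked nucleotide, is shown for each of these 7 mRNAs to let the bound stretch be seen next to the TE values. Each RNA is written 5′ to 3′ from GENCODE vM21 transcripts (GRCm38), with the listed site sequence in capitals and 11 nt on each side in lower case. Coordinates are those of the matched sequence, which began 2 nt above the listed start on the plus strand and 1 nt below it on the minus strand. All 7 sites lie in 3′ UTRs.
Marcks: aaguuguauagGCUUUAUuguuuauugcu
Lypla1: acugguuagaaCAUUAUAuauauauccca
Ube2d3: cguguauauggAGUUUAAgaaauuuauuu
Sox4: cuuuuuuuauuUCUUUUUuuuuaaccauc
Cd164: accuuauuuuaCCUUUGCcauacuugcug
Ap1s2: cuuuaugauugUAUUUUUcugugccuauu
Arfip1: ucuagagcagaAAUUUAUagauuagaaag

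The sites are at chr10:37135314-37135320 on the minus strand (*Marcks*), chr1:4846354-4846360 on the plus strand (*Lypla1*), chr3:135466372-135466378 on the plus strand (*Ube2d3*), chr13:28949164-28949170 on the minus strand (*Sox4*), chr10:41530914-41530920 on the plus strand (*Cd164*), chrX:163928201-163928207 on the plus strand (*Ap1s2*) and chr3:84496938-84496944 on the minus strand (*Arfip1*). The authors' pooled coverage of the shown site was highest in *Cd164*, with 154 reads, and lowest in *Sox4*, with 11 reads, and none had control coverage. *Cd164* had 16 listed sites in all, *Lypla1* 8, *Marcks*, *Ube2d3* and *Sox4* 5 each, *Arfip1* 2 and *Ap1s2* 1.

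*Arxes2* had the smallest p-value. The gene lies at chrX:135993824-135995355 and encodes a protein related to the signal peptidase subunit Spcs3, from which it arose by retrotransposition. Its polysomal level was 31.1 and 34.9 CPM in control cells and 48.9 and 52.6 CPM in HuD cells, whereas its total level was 28.8 and 31.3 CPM in control cells and 28.2 and 33.7 CPM in HuD cells. Both polysomal HuD libraries were above both controls, and the total libraries overlapped. Its log2 TE change was 0.58 (standard error 0.16, unadjusted p = 0.00458, 0.000287 with the replicate block, edgeR). Under the block with GC content and coding length taken into account its adjusted p was 0.290 (edgeR), the smallest of any gene in that fit. Reads of *Arxes2* may be split with its near-identical neighbour, so the value is uncertain to that extent.

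*Marcks* (chr10:37133375-37138920) encodes a protein kinase C substrate that links the plasma membrane to actin. It was at 136 and 129 CPM in polysomal RNA of control cells and at 195 and 185 CPM in that of HuD cells. In total RNA the levels were 108 and 129 CPM in control and 115 and 123.3 CPM in HuD cells. The polysomal groups did not overlap and the total groups did, with a log2 TE change of 0.52 (standard error 0.14, unadjusted p = 0.00532, edgeR). *Lypla1* (chr1:4807788-4848410), an acyl-protein thioesterase that removes palmitate from proteins, was at 70.8 and 83.1 CPM in polysomal control and 93.1 and 92.1 CPM in polysomal HuD libraries. Its total level was 63.0 and 67.7 CPM in control and 56.4 and 59.9 CPM in HuD cells. Here the groups did not overlap in either fraction, in opposite directions, and the log2 TE change was 0.44 (standard error 0.14, unadjusted p = 0.00978, edgeR).

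*Ube2d3* (chr3:135438149-135468198), an E2 enzyme that hands ubiquitin to many ligases, was at 260 and 265 CPM in polysomal control and at 346 and 367 CPM in polysomal HuD libraries. Its total RNA overlapped between groups, at 216 and 267 CPM in control and 208 and 249 CPM in HuD cells. The log2 TE change was 0.52 (standard error 0.17, unadjusted p = 0.0140, 0.00182 with the block, edgeR). *Cd164* (chr10:41519414-41531048), a sialomucin of the cell surface and endosomes, was the most abundant of the 12. It was at 475 and 501 CPM in polysomal control and 606 and 572 CPM in polysomal HuD libraries, with 384 and 434 CPM in total control and 371 and 396 CPM in total HuD RNA. The polysomal groups were again apart and the total groups overlapped, for a log2 TE change of 0.36 (standard error 0.13, unadjusted p = 0.0229, edgeR).

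**Figure D2:**
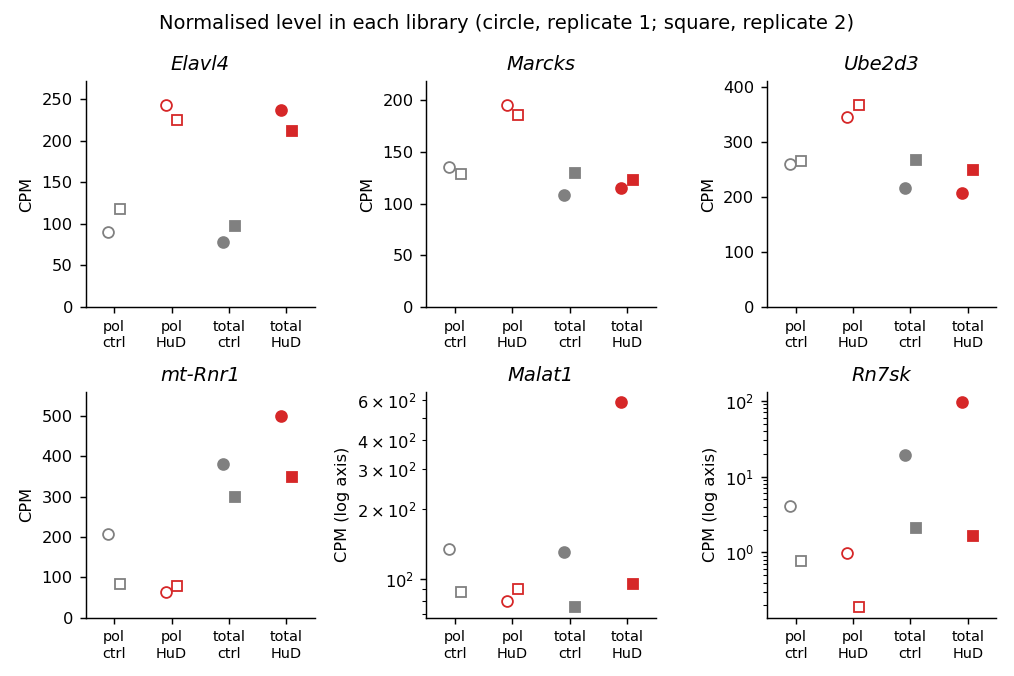
Normalised level (CPM) of 6 genes in each of the 8 libraries, with polysomal libraries as open and total libraries as filled symbols, control in grey and HuD in red; the axes of *Malat1* and *Rn7sk* are logarithmic. *Marcks* and *Ube2d3* were higher in the polysomal HuD libraries only, whereas *Malat1* and *Rn7sk* were set apart by total HuD replicate 1, at 587 and 96.2 CPM.

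Transcription factors of neural progenitors were also among the 12. *Sox4* (chr13:28948919-28953713), an HMG-box factor, was at 94.3 and 94.4 CPM in polysomal control and 122 and 115 CPM in polysomal HuD libraries, with total levels between 99.5 and 106 CPM in all 4 libraries. Its polysomal groups were apart at a total level that hardly varied. *Id4* (chr13:48261427-48264036), an inhibitor of basic helix-loop-helix factors, was lower in abundance, at 7.45 and 5.92 CPM in polysomal control and 8.72 and 9.03 CPM in polysomal HuD libraries. The log2 TE changes were 0.32 (standard error 0.11) and 0.57 (standard error 0.20), with unadjusted p-values of 0.0188 and 0.0171 (edgeR).

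*Ap1s2*, the sigma subunit of the clathrin adaptor AP-1, and *Arfip1*, which encodes arfaptin 1, a Golgi protein that binds small GTPases of the ARF family, had log2 TE changes of 0.38 and 0.59. Of the other named genes, *Arl10* encodes an ARF-like GTPase and had a change of 0.43, which was 0.25 (unadjusted p = 0.164, edgeR) once GC content and coding length were taken into account. *Plp2*, a membrane protein of the endoplasmic reticulum, and *Mgst3*, a microsomal glutathione transferase, had changes of 0.29 and 0.52. In both of these the lower total level in HuD cells was the larger component, at -0.20 and -0.29 on the log2 scale.

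These 12 were chosen from the same libraries for small p-values and groups that did not overlap. Signs and p-values kept under other settings are therefore largely set by that choice and are no separate support. All 12 kept their sign under each library left out in turn, with the changes of *Arxes2*, *Marcks* and *Lypla1* between 0.32 and 0.72. The unadjusted p stayed under 0.05 for 12 of 12 without polysomal control replicate 1 and 11 of 12 without its replicate 2. It did so for 6 of 12 without polysomal HuD replicate 1, total control replicate 2 or total HuD replicate 1, and for 8 or 9 of 12 without each of the other libraries. DESeq2 kept 11 of 12.

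**Figure D3:**
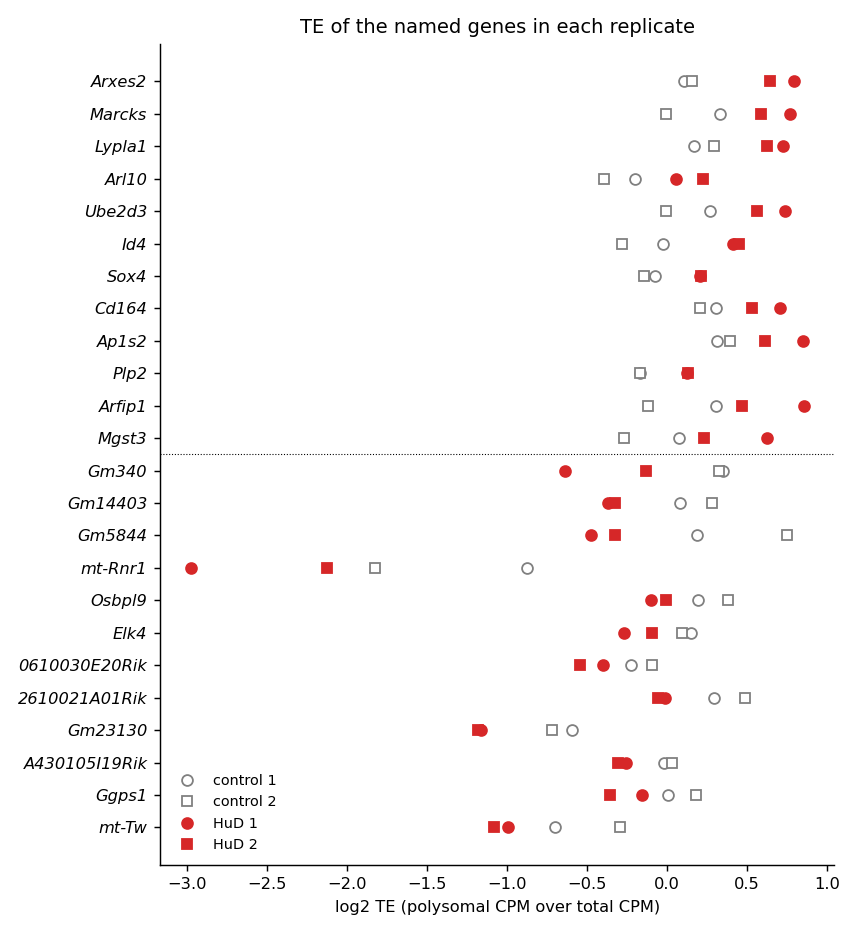
Log2 TE of the 24 named genes in the 2 control and the 2 HuD replicates, from the polysomal and total libraries of the same number, with the 12 genes of higher TE above the dotted line. The rule required groups that do not overlap, and *mt-Rnr1* shows how far replicates could differ, with changes of -2.10 in replicate 1 and -0.30 in replicate 2.

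Among genes with a lower TE, the same rule named *Gm340*, *Gm14403*, *Gm5844*, *mt-Rnr1*, *Osbpl9*, *Elk4*, *0610030E20Rik*, *2610021A01Rik*, *Gm23130*, *A430105I19Rik*, *Ggps1* and *mt-Tw*. Of these, 8 are protein coding, and the others are a processed pseudogene, a snoRNA, a mitochondrial rRNA and a mitochondrial tRNA. None is a HuD mRNA target. Their log2 TE changes ran from -1.35 to -0.29, and in all 12 the polysomal level was lower and the total level higher in HuD cells, with medians of -0.34 and 0.14.

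*Osbpl9* (chr4:109061145-109202272), a lipid transfer protein of the oxysterol-binding family, was at 31.3 and 34.8 CPM in polysomal control and 28.7 and 28.9 CPM in polysomal HuD libraries. In total RNA it was at 27.3 and 26.8 CPM in control and 30.8 and 29.05 CPM in HuD cells. Both fractions were apart, by small amounts in opposite directions, and the log2 TE change was -0.34 (standard error 0.13, unadjusted p = 0.0259, edgeR). *Elk4*, an ETS transcription factor that works with SRF, had a change of -0.31 (standard error 0.12) and *Ggps1*, the synthase of geranylgeranyl diphosphate for protein prenylation, of -0.35 (standard error 0.14). *Gm340* had the largest change of the 8 protein coding genes, -0.75 (standard error 0.25, unadjusted p = 0.0135, edgeR), which was -0.44 (unadjusted p = 0.0552, edgeR) without total HuD replicate 1. Predicted genes such as *Gm14403* and pseudogenes such as *Gm5844* may share reads with close copies, so their counts are uncertain. Without 1 library, the unadjusted p stayed under 0.05 for 2 of 12 (without polysomal HuD replicate 1) to 10 of 12 (without polysomal control replicate 1), and DESeq2 kept 5 of 12.

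Gene types other than protein coding had lower medians with all 8 libraries, but not with each library left out. They fell into an order with protein coding genes at a median log2 TE change of 0.00 (12947 genes), lincRNA genes at -0.05 (471), antisense genes at -0.08 (296), processed pseudogenes at -0.12 (397) and gene models of the type TEC (to be tested by experiment) at -0.16 (237). The lincRNA and antisense medians turned to 0.13 and 0.20 without polysomal control replicate 1 and were -0.18 and -0.21 without its replicate 2, lincRNA genes also stood at 0.03 without total control replicate 2, and processed pseudogenes at 0.00 without total HuD replicate 2. The noncoding types were low in abundance, with median levels of 0.77 to 1.32 CPM against 35.5 CPM for protein coding genes. Of the 85 genes at an unadjusted p under 0.05 with lower TE, 53 were of types other than protein coding, against 17 of the 61 with higher TE and 13.1% of all genes tested (1959). The 85 genes had a median level of 0.953 CPM and the 61 one of 7.37 CPM. Among 19 long noncoding RNAs, the median was -0.15, with -0.19 in replicate 1 and -0.09 in replicate 2, and 8 had a lower TE in both HuD replicates (42.1%, against 20.0% of all genes).

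*Malat1* (chr19:5795690-5802672), a nuclear RNA of splicing speckles, was at 130 and 74.9 CPM in total control RNA and at 587 and 94.5 CPM in total HuD RNA. In polysomal RNA it was at 134 and 87.8 CPM in control and 80.2 and 90.4 CPM in HuD cells. Its level in total HuD replicate 1 was above every other library, and the log2 TE change of -2.11 (standard error 0.90, unadjusted p = 0.0428, edgeR) was -0.26 (unadjusted p = 0.539, edgeR) without it. *Rn7sk*, the small nuclear RNA that holds the elongation factor P-TEFb, was at 19.04 and 2.09 CPM in total control and 96.2 and 1.65 CPM in total HuD RNA. Its TE change of -4.36 (standard error 2.55, unadjusted p = 0.121, edgeR) was 0.55 without total HuD replicate 1. Both nuclear RNAs were thus set by that library, and what set it apart was not tested.

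Most mitochondrial rRNAs, tRNAs and mRNAs, which stay inside the organelle, had negative values. The mitochondrial 12S rRNA *mt-Rnr1* was at 381 and 299 CPM in total control and 500 and 347 CPM in total HuD RNA, and at 208 and 84.3 CPM in polysomal control and 63.5 and 79.7 CPM in polysomal HuD RNA. Its log2 TE change was -1.35 (standard error 0.49, unadjusted p = 0.0220, edgeR), -2.10 in replicate 1 and -0.30 in replicate 2. It was -0.55 without polysomal control replicate 1, in which the polysomal level was high, and -1.06 (unadjusted p = 0.0810, edgeR) without total HuD replicate 1. Of the 10 mitochondrial tRNAs and rRNAs, 4 had a lower and 1, *mt-Ti*, a higher TE at an unadjusted p under 0.05 (edgeR). Over all genes tested these shares were 0.570% and 0.409%. The median level of the 10 was only 2.39 CPM, far below that of *mt-Rnr1*. Their median log2 TE change was -1.04, which was -0.42 without polysomal control replicate 1 and -0.43 without total HuD replicate 1. The 7 mitochondrial mRNAs tested had a median of -0.24, -0.33 in replicate 1 and -0.16 in replicate 2, which turned to 0.07 without polysomal control replicate 1 and was -0.57 without its replicate 2. The most abundant, *mt-Cytb* and *mt-Co1*, subunits of complexes III and IV, had log2 TE changes of -0.33 (standard error 0.31) and -0.24 (standard error 0.37).

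Nuclear genes for oxidative phosphorylation stood on the other side. Of 76 tested, 34 (44.7%) had TE in both HuD replicates above both controls and 3 (3.95%) below, against 18.6% and 20.0% of all genes. The median log2 TE change was 0.13, with 0.07 in replicate 1 and 0.21 in replicate 2, while all genes had -0.01. By complex, the medians were 0.15 for 36 subunits of complex I, 0.10 for 4 of complex II, 0.09 for 10 of complex III with cytochrome c, 0.14 for 11 of complex IV and 0.10 for 15 of complex V. *Ndufc2*, a small subunit of complex I and a HuD target, was the only member at an unadjusted p under 0.05 (0.33, standard error 0.13, unadjusted p = 0.0275, edgeR). Its polysomal level was 221 and 202 CPM in control and 238 and 239 CPM in HuD cells. The most abundant members, *Atp5b* and *Cox4i1*, had changes of 0.07 (standard error 0.15) and 0.14 (standard error 0.13). The 13 HuD targets among the 76 had a median of 0.14 and the 63 others 0.13. The class median was 0.24 without polysomal control replicate 1, 0.03 without its replicate 2, 0.08 without total control replicate 1, and 0.03 with GC content and coding length taken into account.

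These mRNAs are short, with a median coding length of 426 nt, and short mRNAs had higher values in general. With 12826 protein coding genes in 5 equal bins of coding length, the median log2 TE change went from 0.08 in the shortest bin (median 546 nt) through 0.03, 0.00 and -0.03 to -0.06 in the longest (median 3522 nt). Both replicates had this order, from 0.05 to -0.05 in replicate 1 and from 0.12 to -0.07 in replicate 2. TE in both HuD replicates was above both controls for 30.9% of the shortest bin and for 10.1% of the longest. The polysomal change went from 0.04 to -0.04 and the total change from -0.05 to 0.03, so that the 2 fractions contributed in opposite directions. Across genes, Spearman's rho between coding length and TE change was -0.24 in replicate 1 and -0.28 in replicate 2.

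GC content, by contrast, went with TE change in replicate 2 only. The medians over 5 bins of transcript GC content ran from -0.10 in the lowest to 0.18 in the highest bin in replicate 2, and from 0.03 to 0.01 in replicate 1, with rho of 0.42 and -0.04. The copies of AUUUA in the 3′ UTR, the core of AU-rich elements, had a rho of 0.01 in replicate 1 and -0.17 in replicate 2. Length of the 3′ UTR had a rho of -0.01 and -0.08, and mean level of 0.07 and -0.02, so that neither ordered the genes in both replicates.

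**Figure D4:**
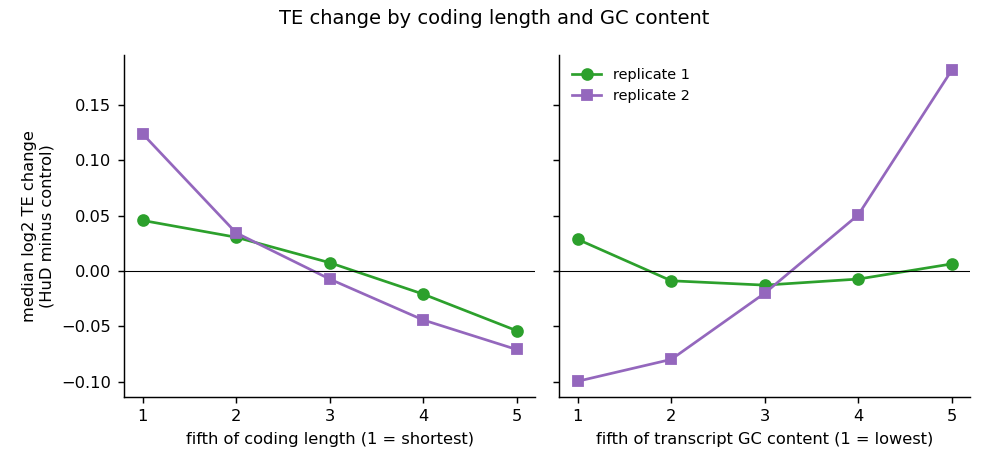
Median log2 TE change over 5 equal bins of coding length (left) and of GC content (right) of 12826 protein coding genes, for replicate 1 (green circles) and replicate 2 (purple squares). Coding length gives a falling line in both replicates, while GC content gives a steep line in replicate 2 and a flat one in replicate 1.

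E2 ubiquitin-conjugating enzymes had like medians in both replicates. TE in both HuD replicates was above both controls for 17 of 30 (56.7%) and below for 1 (3.33%), against 18.6% and 20.0% of all genes. The median log2 TE change was 0.12, with 0.10 in replicate 1 and 0.12 in replicate 2, and 24 of 30 were positive in both. Apart from *Ube2d3*, none had an unadjusted p under 0.05 without the replicate block, and *Ube2e1* had one with it (0.0196, edgeR). The highest value, 0.55, was that of *Ube2v1*, at only 0.717 CPM (standard error 0.65). Its values were -0.32 in replicate 1 and 1.38 in replicate 2. *Ube2m*, the E2 of NEDD8, which was next to *Ube2d3* in abundance, had 0.18 (standard error 0.14). The 10 targets had a median of 0.12 and the 20 others 0.13. The class median lay between 0.07 and 0.17 with each library left out, lowest without total control replicate 2, and was 0.09 with GC content and coding length taken into account. At a median coding length of 549 nt this class is also in the range of the shortest bin of mRNAs.

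Small GTPases and other traffic proteins had different values in HuD targets and in other members, a split that was made after values were seen and was not tested. Of the 16 Rab GTPases that are HuD targets, 10 (62.5%) had TE in both HuD replicates above both controls, against 5 of 36 others (13.9%), 28.8% of all 1282 targets tested and 18.6% of all genes. Chosen after their values were seen, these 10 were *Rab18*, *Rab11a*, *Rab39b*, *Rab5c*, *Rab21*, *Rab2a*, *Rab1*, *Rab10*, *Rab11b* and *Rab8b*, with log2 TE changes from 0.26 down to 0.09. The 16 had a median level of 130 CPM and the 36 others 22.9 CPM, and the split was not matched for level. The median log2 TE change of the 16 was 0.12 (0.17 in replicate 1 and 0.11 in replicate 2) and that of the others 0.02. None of the 52 Rab genes passed an unadjusted p of 0.05 without the replicate block, and 1 did with it (0.0424, edgeR). The most abundant, *Rab1* and *Rab7*, had 0.20 (standard error 0.17) and 0.06 (standard error 0.13). Among SNARE, synaptotagmin and synaptic vesicle genes, TE in both HuD replicates was above both controls for 7 of 10 targets (70.0%) and 16 of 58 others (27.6%). The median changes were 0.12 and 0.01, at median levels of 137 and 45.2 CPM. The vesicle proteins of highest level, *Syt1* and *Syt11*, calcium sensors or relatives of exocytosis, were at -0.06 (standard error 0.18) and 0.04 (standard error 0.11). The median of the 16 Rab targets was 0.21 without polysomal control replicate 2 and 0.08 without total HuD replicate 1 or total control replicate 2.

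Actin and its regulators were split in the same way, also without a test. TE in both HuD replicates was above both controls for 11 of 23 targets (47.8%) and 3 of 30 others (10.0%). Over all targets tested this share was 28.8%, and over all genes 18.6%. Median log2 TE changes were 0.08 in these targets and 0.00 in the others. Median levels were 264 CPM in these targets and 108 CPM in the others. *Pfn2*, the neuronal profilin that supplies actin monomers, was at 210 and 199 CPM in polysomal control and 249 and 261 CPM in polysomal HuD libraries, and its total groups overlapped. Its log2 TE change was 0.35 (standard error 0.13, unadjusted p = 0.0253, edgeR). *Actb*, which encodes beta-actin and is the most abundant member, had 0.17 (standard error 0.17) and *Cfl1*, the severing factor cofilin, 0.05 (standard error 0.14). The median of the 23 targets was 0.19 without polysomal control replicate 2, and 0.04 to 0.05 without polysomal control replicate 1, total control replicate 2 or total HuD replicate 1. Among 13 tubulins, TE in both HuD replicates was above both controls for 5 (38.5%) and below for 0, against 18.6% and 20.0% of all genes. Their median was 0.06, which was -0.02 without total control replicate 2 and 0.14 without total control replicate 1. Neuronal *Tubb3* was at 0.17 (standard error 0.13).

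Targets and other mRNAs were also set side by side within the bins of coding length. In the shortest bin, TE in both HuD replicates was above both controls for 44.5% of 429 targets and 28.2% of 2137 other protein coding genes, with medians of 0.11 and 0.07. In the next bin these shares were 30.7% and 24.1%, and in the longest 8.24% of 170 targets and 10.2% of 2395 others. In the bins that follow they were 22.1% and 18.3%, then 17.4% and 13.4%. Targets thus followed the same order by length as other mRNAs. Their share was larger than that of others in all bins but the longest, a difference that was not tested. The medians of targets and others after the shortest bin were 0.041 and 0.024, -0.0055 and -0.0045, -0.025 and -0.034, and -0.090 and -0.064. Targets were also more abundant, at a median of 110 CPM against 30.2 CPM, and level was not matched. In 5 equal bins of mean level, this share of protein coding genes was 16.9% in the lowest and 25.9% in the highest. Over all targets the median was 0.04 in replicate 1 and 0.01 in replicate 2, and it was 0.07 without polysomal control replicate 2 and -0.01 without its replicate 1.

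The translation machinery was divided. The 79 cytosolic ribosomal proteins had a median log2 TE change of 0.02, with -0.01 in replicate 1 and 0.05 in replicate 2, and the range was -0.19 to 0.40. TE in both HuD replicates was above both controls for 20 of them (25.3%) and below for 4 (5.06%), against 18.6% and 20.0% of all genes. Their median coding length was 456 nt, and in the shortest bin of coding length the shares were 30.9% and 8.07%. The median log2 TE change turned to -0.05 with GC content and coding length taken into account. It turned to values between -0.04 and -0.01 without polysomal control replicate 2, polysomal HuD replicate 2, total control replicate 1 or total HuD replicate 1. The 21 targets had a median of 0.00 and the 58 others 0.03. *Rpl4* and *Rplp0*, the most abundant, had -0.11 (standard error 0.16) and -0.10 (standard error 0.19). Mitochondrial ribosomal proteins (76 genes) had the same median, 0.02, which was -0.02 without total HuD replicate 1 and -0.04 with GC content and coding length taken into account. The 53 initiation factors lay at -0.06 and the 18 elongation, termination and poly(A)-binding factors at -0.04. No gene of these 4 classes had an unadjusted p under 0.05 without the replicate block. With the block, 1 initiation factor did (0.0425, edgeR). Without polysomal control replicate 1 the initiation factors were at -0.12, and they turned to 0.05 without its replicate 2, 0.00 without total control replicate 1 and 0.01 without total HuD replicate 2. The median of the 18 ran from -0.01 without polysomal control replicate 2 to -0.15 without polysomal HuD replicate 2.

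*Eef1a1*, the elongation factor that brings charged tRNA to the ribosome, lies at chr9:78478449-78489151. Its polysomal level was 5635 and 5875 CPM in control and 5167 and 5163 CPM in HuD cells, and its total level 6248 and 6134 CPM in control and 6514 and 6154 CPM in HuD cells. TE was lower in both HuD replicates, by 0.19 on the log2 scale in the fit (standard error 0.16), which did not pass the test (unadjusted p = 0.274, edgeR). *Pabpc1*, the cytoplasmic poly(A)-binding protein, had polysomal levels of 737 and 713 CPM in control and 572 and 642 CPM in HuD cells, with a log2 TE change of -0.25 (standard error 0.14, unadjusted p = 0.106, edgeR). The helicases *Eif4a1*, *Eif4a2* and *Eif4a3*, the last without a listed HuD mRNA site, had -0.06 (standard error 0.15), -0.12 (standard error 0.16) and 0.06 (standard error 0.12). Of these 5 genes, none reached an unadjusted p of 0.05 with or without the replicate block.

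Enzymes and factors that feed translation were on the lower side. None of the 20 cytosolic aminoacyl-tRNA synthetases had TE in both HuD replicates above both controls and 11 (55.0%) had it below, against 20.0% of all genes. Their median was -0.11, with -0.04 in replicate 1 and -0.16 in replicate 2. *Aars* and *Kars*, the most abundant, had -0.03 (standard error 0.18) and -0.11 (standard error 0.14), and the smallest unadjusted p was 0.136 (edgeR). The 48 ribosome biogenesis factors had a median of -0.12, with 0.00 in replicate 1 and -0.16 in replicate 2, and *Npm1* and *Ncl*, abundant nucleolar proteins, had -0.18 (standard error 0.28) and -0.32 (standard error 0.40). Both medians turned to the other sign without polysomal control replicate 2, at 0.02 and 0.05, and were -0.21 and -0.27 without its replicate 1. These mRNAs are long, with median coding lengths of 2073 and 1752 nt, and with GC content and coding length taken into account the medians were -0.04 and -0.06.

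**Figure D5:**
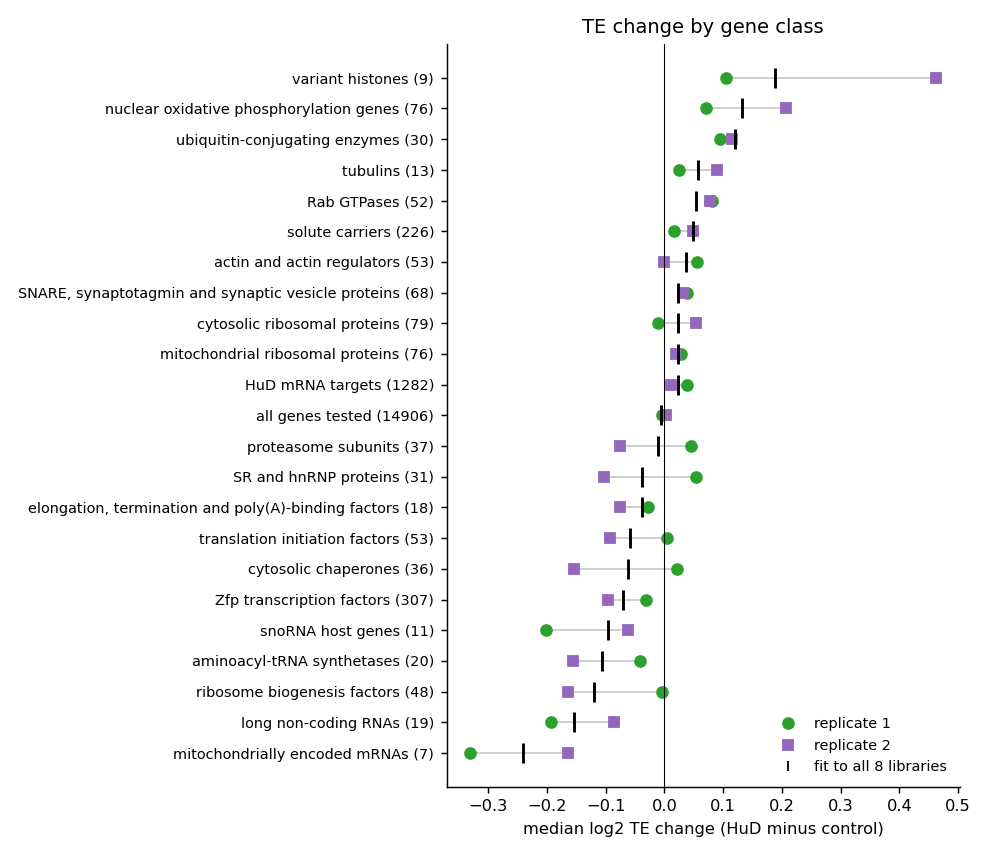
Median log2 TE change of each gene class in replicate 1 (green circles), replicate 2 (purple squares) and the fit to all 8 libraries (black bars), with the number of genes tested in parentheses. E2 enzymes and Rab GTPases have nearly equal medians in both replicates, whereas variant histones, chaperones and ribosome biogenesis factors lie apart, for example 0.10 and 0.46 for variant histones.

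Zinc finger transcription factors of the Zfp family, mostly DNA-binding repressors, had a median of -0.07 over 307 genes, with -0.03 in replicate 1 and -0.10 in replicate 2. TE in both HuD replicates was below both controls in 98 of them (31.9%) and above in 28 (9.12%), against 20.0% and 18.6% of all genes. The class kept its sign with each library left out, between -0.09 and -0.04, and was at -0.03 with GC content and coding length taken into account, its median coding length being 1740 nt. *Zfp428* went the other way, with 0.49 (standard error 0.19, unadjusted p = 0.0266, edgeR), and 0.24 (unadjusted p = 0.193, edgeR) with GC content and coding length taken into account. Variant histones, whose mRNAs carry poly(A) tails, had a median of 0.19 over 9 genes, which was 0.51 without polysomal control replicate 1 and 0.10 without its replicate 2. The most abundant, *H3f3b*, had 0.16 (standard error 0.13).

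The 25 cholinergic and motor neuron identity genes had a median of 0.06, with 0.01 in replicate 1 and 0.10 in replicate 2. It was 0.01 with GC content and coding length taken into account. TE in both HuD replicates was above both controls for 7 (28.0%) and below for 3 (12.0%), against 18.6% and 20.0% of all genes. *Prph*, a neuronal intermediate filament, and *Ret*, the receptor for GDNF ligands, had 0.06 (standard error 0.14) and 0.06 (standard error 0.16). The median of the 25 was 0.00 without polysomal control replicate 2. The 35 motor neuron disease genes had a median of -0.06, which turned to 0.06 without polysomal control replicate 2 and 0.03 without total control replicate 1 and was -0.15 without polysomal control replicate 1. The 47 genes of the PI3K, AKT and mTORC1 pathway had a median of 0.03, which was -0.01 without polysomal control replicate 2 or total control replicate 2. Both classes were without a gene at an unadjusted p under 0.05 without the replicate block. With the block, 1 motor neuron disease gene had such a p (0.0425, edgeR). In the PI3K, AKT and mTORC1 class, *Rheb*, the GTPase that turns on mTORC1, had 0.22 (standard error 0.12, unadjusted p = 0.0946, 0.0469 with the replicate block, edgeR). Among splicing regulators, *Hnrnpa0*, a target, had 0.43 (standard error 0.17, unadjusted p = 0.0291, edgeR), and the median of the 31 SR and hnRNP genes was -0.04. That median was 0.16 without polysomal control replicate 2, -0.18 without its replicate 1, and 0.00 with GC content and coding length taken into account.

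Axonal and synaptic mRNAs singled out for TE by the study were compared on their own. *Sema4d*, a semaphorin, was at 70.9 and 78.5 CPM in polysomal control and 83.5 and 82.6 CPM in polysomal HuD libraries, but its total level was also 73.0 and 79.0 against 81.8 and 78.8 CPM. Its log2 TE change was 0.08 (standard error 0.12). *Picalm*, a clathrin assembly protein, had 0.01 (standard error 0.22), *Acsl4*, an arachidonate-activating enzyme, -0.02 (standard error 0.24) and *Hnrnpa2b1* -0.05 (standard error 0.23). *Kif5b*, the heavy chain of kinesin, had -0.24 (standard error 0.26). *Gapdh*, a glycolytic enzyme often used as a reference gene, had 0.09 (standard error 0.12). None of these 6 reached an unadjusted p of 0.05 (edgeR).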

How the data were processed

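Polysomal and total RNA of control and HuD cells were sequenced in biological duplicate, from libraries made with a kit for mRNA. How that kit takes up RNAs other than mRNA was not tested. The authors mapped stranded mRNA reads with STAR (2.5.3a) to the mouse genome and deposited gene counts without normalisation. Counts were tested here in edgeR (4.0.16) with limma (3.58.1) under R (4.3.3): TMM scaling, filterByExpr, 4 group means and a quasi-likelihood test of the interaction, with 4 residual degrees of freedom and Benjamini-Hochberg adjustment. DESeq2 (1.42.0), limma-voom, other scalings and filters and each library left out were alternatives, and the GC content and coding length offsets (splines with 5 degrees of freedom) were added after seeing the data. The fit was tested on simulated data. TE in each replicate is the log2 ratio of CPM plus 0.1 in libraries of the same number. The sources name no pairing, but deviations from group means correlated between same-numbered libraries in all 6 pairs of groups (r of 0.188 to 0.387), so the numbers were taken as pairs. CRAC sites came from the coverage and deletion counts that the authors deposited per site, pooled over experiments. The 3′ end data were not used here, and a few genes are not reported here.

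Beside *Elavl4*, the genes named were the 12 of smallest p in each direction with at least 5 CPM and groups that did not overlap, the 2 most abundant members of each class and those at p under 0.05, and genes the study discussed for TE. Members, classes and this rule were chosen with earlier results of these data known. Gene features and site sequences came from GENCODE vM21 transcripts on GRCm38.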

Additional observations from a re-analysis of the deposited data

How the results depend on the processing

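Of the genes at an unadjusted p under 0.05, the count with higher TE (61) was 163 with the replicate block, 320 with the replicate block within condition, 36 at a mean of at least 5 CPM and 27 in DESeq2. The count with lower TE (85) was 199, 398, 26 and 23 under these settings. With GC content and coding length offsets the count with lower TE was 46. With the offsets and the replicate block the counts were 260 and 184, and with the block within condition 420 and 309. With each library left out, the higher count ran from 28 (without total HuD replicate 1) to 1164 (without polysomal control replicate 1) and the lower count from 65 (without polysomal HuD replicate 1) to 860 (without polysomal control replicate 1). Without polysomal control replicate 2 they were 96 and 173, and without polysomal HuD replicate 2 the higher count was 30. The count at an adjusted p under 0.05 (edgeR) ran from 0 to 47, and was 0 in every other setting run. The replicate block changed no call at an adjusted p under 0.05. *Mir6236* had a log2 TE change of -5.13, which reversed to 0.41 without total HuD replicate 1 and was -7.22 without total control replicate 1. The cause of these changes was not tested, except that 10738 genes were left to test at 5 CPM and 12826 with offsets. The median of all genes lay between -0.01 and 0.01 in all settings. With 2 libraries a group, differences within the standard errors given could not be resolved.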
